A study of Mus musculus with 2 samples.

Results

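The integrated stress response and amino acid supply were examined through 10 genes, Atf4, Ddit3, Trib3, Sesn2, Nupr1, Mthfd2, Eif4ebp1, Slc38a2, Chka and Ddit4, out of 32285 genes in the deposited tables. The set was selected on measured values of these same libraries: Nupr1, Mthfd2 and Eif4ebp1 had been seen to be higher, and Slc38a2, Chka and Ddit4 lower, in the Gpm6a knockout library. Every difference given here between the genotypes is therefore a description with no test. For the other 4 genes, Atf4, Ddit3, Trib3 and Sesn2, no direction was stated.

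The study profiled single cells of the fourth mammary gland by 10x Genomics 3′ RNA sequencing in 2 libraries. The knockout (KO) library held Gpm6a deletion cells and the wild-type (WT) library held WT cells, both on C57BL/6. Gpm6a encodes a membrane glycoprotein best known from neurons. All animals were virgin females 6 to 8 weeks old, and cells without DAPI staining were sorted from 3 littermates of each genotype. The labels do not say how the deletion was made or in which cells, and the animals within a library cannot be told apart, so each genotype counted as 1 sample. No p-value or standard deviation between animals can be had, and the intervals below cover counting error only.

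When amino acids run short, unfolded protein builds up, haem is lacking or a virus is sensed, a kinase phosphorylates the translation initiation factor eIF2. Bulk translation then slows, while the mRNA of the transcription factor ATF4 is translated more. ATF4, often with C/EBP partners, binds a short DNA element and raises genes for amino acid uptake, amino acid synthesis, tRNA charging and the damping of the response. Because ATF4 is set largely at translation, the level of Atf4 mRNA does not report its activity. In the mammary gland amino acid uptake is best known from lactation, a state outside these virgin animals.

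The element was looked for in the promoter windows of the genes, taken from RefSeq on GRCm38.p6 as the 250 bases before and 50 bases after each gene start. A window was on hand for 9 of the 10 genes, all but Eif4ebp1. The motif TGATGNAA was searched on both strands (TTNCATCA on the other), and it was present in 1304 of 32851 windows of this kind, or 3.97%. Of the 9 windows, 2 held it, those of Trib3 and Nupr1. The windows of both are shown with those of Slc38a2 and Chka, the pair that was lower in KO in every cell group compared, and capitals mark the motif.
Trib3, chr2:152344011-152344310, minus strand: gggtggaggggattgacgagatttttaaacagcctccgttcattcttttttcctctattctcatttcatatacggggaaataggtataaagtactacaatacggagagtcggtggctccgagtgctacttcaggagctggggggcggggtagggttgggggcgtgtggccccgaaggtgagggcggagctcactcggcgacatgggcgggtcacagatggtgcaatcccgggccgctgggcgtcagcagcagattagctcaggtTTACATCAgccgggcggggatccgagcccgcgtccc
Nupr1, chr7:126625421-126625720, minus strand: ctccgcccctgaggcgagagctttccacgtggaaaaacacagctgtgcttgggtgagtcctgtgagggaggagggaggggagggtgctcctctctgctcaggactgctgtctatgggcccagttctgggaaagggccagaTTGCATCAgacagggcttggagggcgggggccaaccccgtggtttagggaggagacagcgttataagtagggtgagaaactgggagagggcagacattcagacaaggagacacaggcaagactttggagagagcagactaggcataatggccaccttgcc
Slc38a2, chr15:96699679-96699978, minus strand: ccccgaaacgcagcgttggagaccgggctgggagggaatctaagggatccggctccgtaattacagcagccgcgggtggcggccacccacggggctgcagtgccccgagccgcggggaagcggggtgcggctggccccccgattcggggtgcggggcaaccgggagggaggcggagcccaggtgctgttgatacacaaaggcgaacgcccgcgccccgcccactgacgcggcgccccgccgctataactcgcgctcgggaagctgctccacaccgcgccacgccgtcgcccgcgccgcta
Chka, chr19:3851523-3851822, plus strand: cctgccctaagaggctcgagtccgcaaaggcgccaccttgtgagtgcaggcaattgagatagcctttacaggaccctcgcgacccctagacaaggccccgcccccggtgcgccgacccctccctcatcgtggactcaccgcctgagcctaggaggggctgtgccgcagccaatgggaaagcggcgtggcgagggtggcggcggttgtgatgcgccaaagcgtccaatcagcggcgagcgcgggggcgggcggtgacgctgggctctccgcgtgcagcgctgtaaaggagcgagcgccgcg
In Trib3 the match began 14 bases after the RefSeq gene start and in Nupr1 110 bases before it (position -110), and in both it read in the reverse orientation. RefSeq places the start of Nupr1 5391 bases inside the longer GENCODE gene whose span is given next, and that of Mthfd2 8304 bases inside. No match in the other windows says only that these letters are not within them.

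The genes lie apart in the genome (GENCODE M21, GRCm38). Slc38a2 spans 96687392 to 96699730 and Atf4 80255184 to 80257541 on chromosome 15. Ddit3 (127290774 to 127296288) and Ddit4 (59949669 to 59951834) are on chromosome 10. Nupr1 is on chromosome 7 (126623249 to 126630861), Trib3 on chromosome 2 (152337422 to 152344032), Sesn2 on chromosome 4 (132492032 to 132510501) and Mthfd2 on chromosome 6 (83305691 to 83325908). Eif4ebp1 is on chromosome 8 (27260329 to 27276674) and Chka on chromosome 19 (3851773 to 3894369). The files held 11 rows for the 10 genes, since Ddit3 had 2: a row for a 105-base transcript with no UMI in any barcode, and the row of the full gene with 4747 UMIs in KO and 4746 in WT, which was used. The last 68 bases of Ddit3 overlap Mars on the opposite strand. On its own strand, Ddit3 overlaps the second Ddit3 model over 2925 bases. Sesn2 and Mthfd2 overlap the gene models Gm12981 and Gm43890 on their own strands. Some reads in the own-strand overlaps may be assigned to either or to none.

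The KO library held 11442 barcodes and 139757797 UMIs, and the WT library 12291 barcodes and 160026788 UMIs. Filters and doublet calls left 10472 KO and 10523 WT cells, with a median depth of 9521 UMIs in KO and 11086 UMIs in WT. Only 33 barcode sequences occurred in both libraries. Gpm6a had 29 UMIs in KO, or 0.225 (0.15 to 0.323) counts per 1000000 UMIs (CPM), against 284 UMIs or 1.91 (1.70 to 2.15) CPM in WT. The cells fell into 38 clusters, of which 23 were placed in 14 classes by lists of marker genes; 10 classes had at least 100 cells in each library and are called cell groups here. A class name means only that the cells resemble that type. All 8 basal, all 8 luminal progenitor and all 7 fibroblast markers were at least 2-fold above the other cells in both libraries, as were 7 of 8 hormone-sensing markers in KO and 6 of 8 in WT. The sort carried no epithelial marker and fibroblasts were the most numerous class, with 4576 KO and 3788 WT cells, beside 949 and 1420 basal, 440 and 264 luminal progenitor, and 1234 and 973 hormone-sensing luminal cells. Clusters that stayed unnamed held 8.45% of KO and 20.25% of WT cells, partly because some clusters were nearly all from WT. None of the 10 genes was among the 2000 variable genes that drove the clustering.

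A level is given as CPM of the summed UMIs of a class, and a ratio on the log2 scale, KO divided by WT, after 1 CPM was added on both sides. A gene was called higher or lower where it differed at least 1.5-fold and had at least 20 UMIs over both libraries. In fibroblasts 5 of the 10 genes were called higher in KO, against a background of 1.85% of the 14758 genes tested, and 2 were called lower, against 2.72%. In luminal progenitors 4 were higher (background 6.77% of 11051) and 3 lower (7.4%). In basal cells 2 were higher (background 2.56% of 13839) and 3 lower (3.59%). In hormone-sensing luminal cells none was called higher (background 1.57% of 13371) and 3 were lower (6.15%). The genes were picked on this contrast, so nothing is read from these shares.

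In each of the other cell groups, a larger share of all genes was called lower than in any main class. Vascular endothelial cells had 6 genes called higher (background 6.1%) and 2 lower (14.6%), and pericytes or smooth muscle cells had 5 higher (7.46%) and none lower (15.5%). T cells had 2 higher (4.11%) and 2 lower (15.7%), and B cells 3 higher (9.82%) and 2 lower (16.7%). Dendritic cells had 5 higher (4.8%) and 3 lower (15%), and macrophages 3 higher (8.13%) and 2 lower (14.3%). The median ratio of all genes tested lay between -0.14, in T cells and in dendritic cells, and -0.02 in basal cells.

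**Figure D1:**
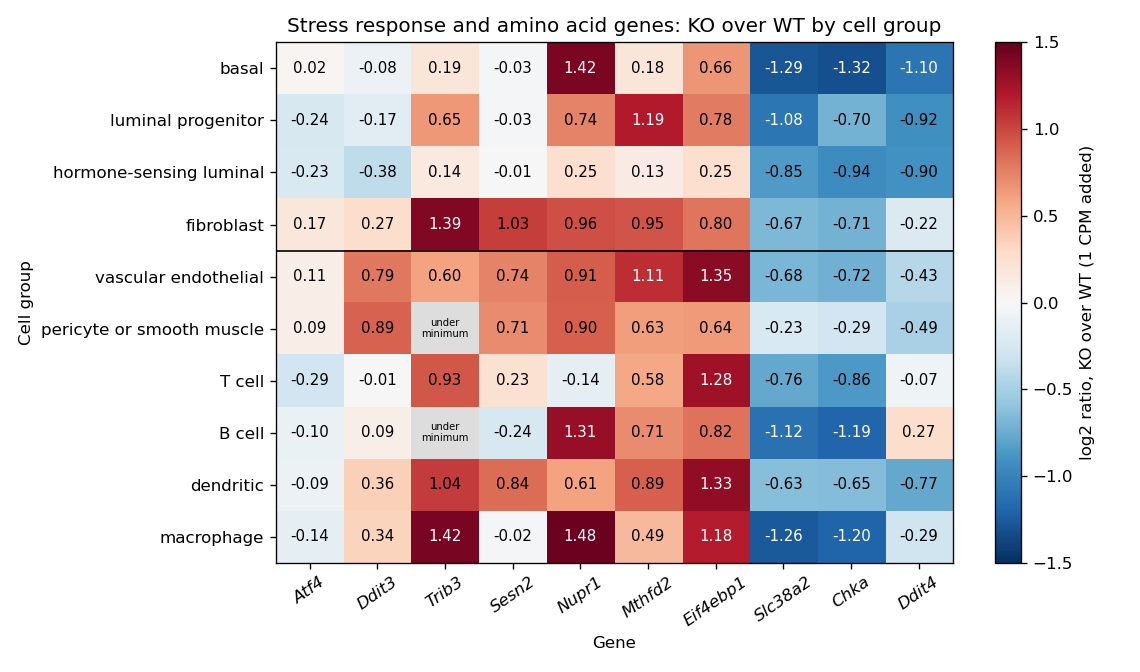
log2 ratio of each gene, KO over WT with 1 CPM added, by cell group (rows) and gene (columns); red is higher and blue lower in KO, grey marks fewer than 20 UMIs, and the line parts the 4 main classes from the rest. Slc38a2 and Chka are below 0 in all 10 rows and Mthfd2 and Eif4ebp1 above 0 in all 10, while Atf4 stays between -0.29 and 0.17.

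Atf4, the central transcription factor, differed little between the libraries in any group. In basal cells it stood at 289.8 CPM in KO and 285.0 CPM in WT, and in luminal progenitors at 348 CPM in KO and 412 CPM in WT. In hormone-sensing luminal cells it stood at 148 CPM in KO and 174 CPM in WT, against 556 CPM in KO and 494 CPM in WT fibroblasts. The ratio was above 0 in 4 and below 0 in 6 of the 10 groups, with no group past 1.5-fold. With TMM scaling, which multiplies all levels of a library in a group by the same factor, it was above 0 in 6 and below 0 in 4. By cell group, pericytes or smooth muscle cells, fibroblasts and vascular endothelial cells had the most Atf4 in the KO library (588, 556 and 535 CPM), and hormone-sensing luminal cells and T cells the least (148.0 and 148.4 CPM); neighbours at each end of that order had overlapping intervals.

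Ddit3 encodes CHOP, a transcription factor induced downstream of ATF4 under prolonged stress. Its level in fibroblasts was 59.2 CPM in KO and 49.0 CPM in WT, and in basal cells 20.1 CPM in KO and 21.3 CPM in WT. In luminal progenitors it rested on 96 KO and 68 WT UMIs, a ratio of -0.17 with overlapping intervals of the levels, and in hormone-sensing luminal cells 8.29 CPM in KO and 11.1 CPM in WT. The vascular groups had larger ratios: vascular endothelial cells had 83.8 CPM in KO and 48.1 CPM in WT (0.79), and pericytes or smooth muscle cells 152 CPM in KO and 81.8 CPM in WT (0.89). Of the 10 groups, Ddit3 was called in this pair alone; 6 were above 0, or 7 with TMM scaling.

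Trib3, a pseudokinase induced by ATF4 and CHOP that dampens the response, was scarce. Fibroblasts had 6.59 (5.81 to 7.45) CPM in KO and 1.90 (1.51 to 2.36) CPM in WT, from 256 and 80 UMIs, a ratio of 1.39. Of the fibroblasts, 4.81% in KO and 1.95% in WT held a UMI, and at an equal depth of 2000 UMIs per cell 1.18% in KO and 0.227% in WT. The intervals of the levels did not overlap, and the ratio was the highest of the 10 genes in fibroblasts. Luminal progenitors had 24.3 CPM in KO and 15.2 CPM in WT (0.65), past 1.5-fold in 10 of 16 alternatives and at 0.37 when a lead of 0.5 was enough to name a cluster. Basal cells, at 5.14 CPM in KO and 4.39 CPM in WT, and hormone-sensing luminal cells, at 14.0 CPM in KO and 12.6 CPM in WT, overlapped within counting error. Trib3 was above 0 in all 8 groups with enough UMIs and called in 6. In 4 of those 8 the counting interval of the ratio lay above 0; it spanned 0 in 2 of the called groups, vascular endothelial cells (25 KO and 20 WT UMIs) and T cells (29 KO and 6 WT UMIs).

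Sesn2 encodes a leucine sensor that restrains the growth kinase complex mTORC1. It was at 44.5 (42.4 to 46.6) CPM in KO and 21.2 (19.9 to 22.7) CPM in WT fibroblasts, a ratio of 1.03. In the epithelium the levels overlapped within counting error: basal cells had 15.9 CPM in KO and 16.3 CPM in WT, luminal progenitors 120 KO and 77 WT UMIs (-0.03), and hormone-sensing luminal cells 5.94 CPM in KO and 5.98 CPM in WT. The ratio was 0.74 in vascular endothelial cells, 0.71 in pericytes or smooth muscle cells and 0.84 in dendritic cells, all called higher, against -0.02 in macrophages and -0.24 in B cells. By sign alone, 5 of the 10 groups were above and 5 below 0, or 8 above and 2 below with TMM scaling. The counting interval of the ratio lay above 0 in 4 groups, those called, and in no group wholly below 0. The B cell value rested on 19 KO and 12 WT UMIs, with an interval from -1.38 to 0.91. Whether the epithelial and the stromal ratios differ was not tested.

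Nupr1, a small chromatin-binding protein induced by many stresses, had its highest levels in hormone-sensing luminal cells, at 1020 CPM in KO and 858 CPM in WT (0.25). Fibroblasts came next, at 839 CPM in KO and 430 CPM in WT (0.96), where at equal depth 66.3% of KO cells and 46.3% of WT cells held a UMI. Luminal progenitors had 179 CPM in KO and 106 CPM in WT (0.74), a value that passed 1.5-fold in 11 of 16 alternatives and was 0.27 when a lead of 0.5 was enough to name a cluster. Of the 10 groups, 9 were above 0 and 8 called higher, with macrophages the highest (180 CPM in KO and 64.1 CPM in WT, 1.48) and T cells below 0 (11.9 CPM in KO and 13.2 CPM in WT), though above 0 with TMM scaling. The class with the highest level thus had a small ratio.

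In basal cells Nupr1 was at 28.4 CPM in KO and 10.0 CPM in WT, a ratio of 1.42, but 5 cells carried 46.5% of the KO UMIs and 30.04% of the WT UMIs, and 1 KO cell alone had 76 UMIs. The ratio stayed past 1.5-fold in all 16 alternatives that gave one. Among them was the setting that left out the 5 cells with the most Nupr1 UMIs in each library. At equal depth 3.18% of KO and 2.17% of WT basal cells had a UMI, beside 2.35% of KO and 2.80% of WT T cells, which lack strong Nupr1 signal in both libraries. The share of basal cells lay close to that of T cells, so no difference in basal cells at large is read from it. The summed markers of hormone-sensing luminal cells, where Nupr1 is highest, were at 105 CPM in KO and 104 CPM in WT basal cells, and those of fibroblasts at 649 CPM in KO and 812 CPM in WT, with no marker of either list at 0.

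Mthfd2, a mitochondrial enzyme of the folate cycle that feeds one-carbon units into nucleotide synthesis, was highest in dendritic cells, at 209 CPM in KO and 112 CPM in WT. Luminal progenitors had 63.3 (57.1 to 70.0) CPM in KO and 27.1 (22.1 to 33.0) CPM in WT, a ratio of 1.19. Fibroblasts had 72.4 CPM in KO and 37.1 CPM in WT (0.95). In the other epithelial classes the levels overlapped: basal cells had 20.3 CPM in KO and 17.8 CPM in WT, and hormone-sensing luminal cells 16.9 CPM in KO and 15.4 CPM in WT. All 10 groups were above 0 and 6 were called. Among the called groups, the counting interval of the ratio spanned 0 in pericytes or smooth muscle cells (15 KO and 32 WT UMIs, -0.31 to 1.61).

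Eif4ebp1 encodes a repressor that holds the cap-binding factor eIF4E when mTORC1 is low. It was higher in KO in all 10 groups and called in 9, with or without TMM scaling. Fibroblasts had 149 CPM in KO and 85.2 CPM in WT (0.80), luminal progenitors 122 CPM in KO and 70.3 CPM in WT (0.78), and basal cells 42.2 CPM in KO and 26.3 CPM in WT (0.66). The basal call held in 11 of 16 alternatives, and the ratio there was 0.36 with cells thinned to 2000 UMIs. Its ratio was highest in vascular endothelial cells, at 136 (120 to 155) CPM in KO and 52.9 (43.9 to 63.3) CPM in WT (1.35), and lowest in hormone-sensing luminal cells, at 69.9 CPM in KO and 58.7 CPM in WT (0.25). The counting interval of the ratio lay above 0 in all 10 groups.

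**Figure D2:**
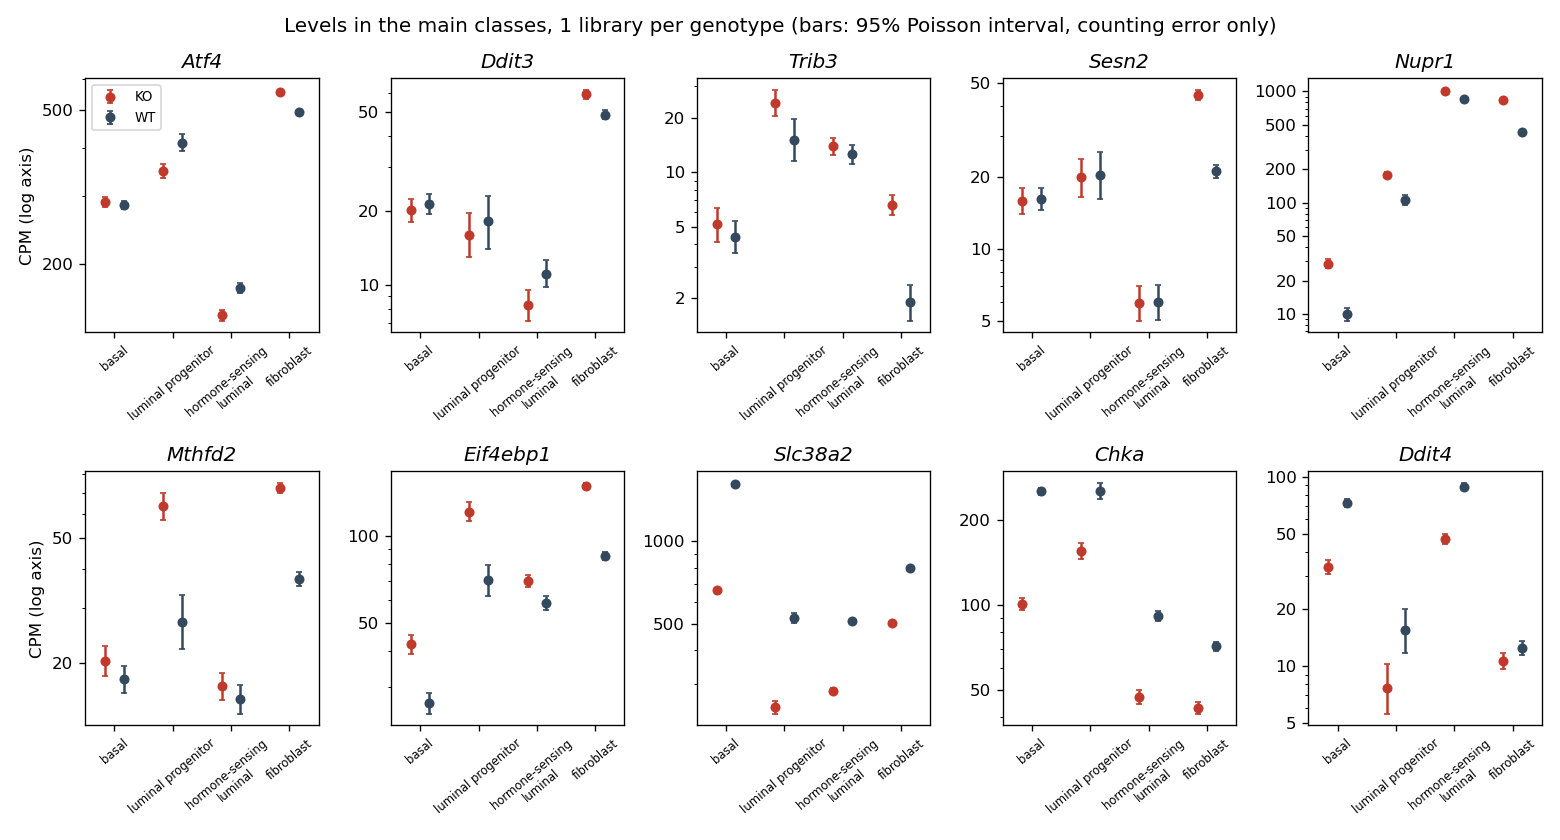
CPM of each gene (log axes that differ between panels) in the 4 main classes, KO left of WT, with 95% Poisson intervals of the summed UMIs, 1 library per genotype. Slc38a2 and Chka are lower in KO in each class, whereas Sesn2 departs from WT in fibroblasts, at 44.5 CPM in KO and 21.2 CPM in WT.

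Slc38a2 encodes SNAT2, a sodium-coupled importer of small neutral amino acids that cells induce through ATF4 when amino acids are scarce. It was lower in KO in all 10 groups and called in 9, or in 6 with TMM scaling, under which fibroblasts (-0.58), T cells (-0.56) and dendritic cells (-0.47) were short of 1.5-fold. Basal cells, with the most Slc38a2 in WT, had 661 (649 to 674) CPM in KO and 1616 (1599 to 1633) CPM in WT, a ratio of -1.29. Luminal progenitors had 247 CPM in KO and 525 CPM in WT (-1.08), hormone-sensing luminal cells 283 CPM in KO and 510 CPM in WT (-0.85), and fibroblasts 502 CPM in KO and 798 CPM in WT (-0.67).

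The cell types differed in Slc38a2 too. In WT, basal cells, vascular endothelial cells (1357 CPM) and B cells (1044 CPM) led and had intervals that did not overlap with the next in order, whereas T cells, luminal progenitors, hormone-sensing luminal cells and dendritic cells lay between 537 and 495 CPM with overlapping neighbours. In KO vascular endothelial cells led, at 844 CPM, followed by pericytes or smooth muscle cells, at 713 CPM, and basal cells, at 661 CPM. The smallest difference was in pericytes or smooth muscle cells, at 713 CPM in KO and 835 CPM in WT (-0.23), the one group not called. At equal depth a UMI was found in 69.5% of KO and 89.4% of WT basal cells.

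Chka, choline kinase alpha, makes phosphocholine at the first step of the CDP-choline route to phosphatidylcholine. Basal cells had 101 CPM in KO and 253 CPM in WT (-1.32), the lowest ratio of any of the 10 genes in that class. Luminal progenitors had 156 CPM in KO and 254 CPM in WT (-0.70), hormone-sensing luminal cells 47.2 CPM in KO and 91.4 CPM in WT (-0.94), and fibroblasts 43.3 CPM in KO and 71.5 CPM in WT (-0.71). Like Slc38a2 it was lower in all 10 groups and called in 9, all but pericytes or smooth muscle cells (103 CPM in KO and 127 CPM in WT, -0.29), or in 8 with TMM scaling, where dendritic cells were at -0.49. The luminal progenitor value passed 1.5-fold in 13 of 16 alternatives, the smallest being -0.53 with cells classed one by one.

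Ddit4 encodes REDD1, an inhibitor of mTORC1 that hypoxia, glucocorticoids and stress induce. It was lower in KO in each epithelial class: basal cells had 33.5 CPM in KO and 72.7 CPM in WT (-1.10), hormone-sensing luminal cells 47.0 CPM in KO and 88.8 CPM in WT (-0.90), and luminal progenitors 7.67 CPM in KO and 15.4 CPM in WT (-0.92), the last from 46 KO and 58 WT UMIs. Fibroblasts had 10.6 (9.6 to 11.7) CPM in KO and 12.48 (11.4 to 13.6) CPM in WT (-0.22), with overlapping intervals of the levels. The counting interval of the ratio lay below 0 (-0.42 to -0.05), but spanned 0 with TMM scaling (-0.33 to 0.05). Vascular endothelial cells, with the most Ddit4 in both libraries, had 207 (186 to 229) CPM in KO and 278 (257 to 301) CPM in WT (-0.43), short of 1.5-fold. Over the groups 9 were below 0 and 4 were called, with B cells above 0 at 11.2 CPM in KO and 9.10 CPM in WT, from 21 and 9 UMIs; with TMM scaling 8 were below 0. Thinning each cell to 2000 UMIs moved the hormone-sensing value to -0.48.

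The genes were then followed within the fibroblast class, whose 6 clusters held between 108 and 1124 KO cells and between 52 and 1009 WT cells each. Trib3 and Sesn2 were farthest apart in cluster 3, whose defining genes include Pi16 and Dpp4: Trib3 was at 11.4 CPM in KO and 2.90 CPM in WT (1.67), and Sesn2 at 69.6 CPM in KO and 24.4 CPM in WT (1.48). Mthfd2 there was at 109 CPM in KO and 38.4 CPM in WT (1.49), and Eif4ebp1 at 154 CPM in KO and 60.1 CPM in WT (1.34). Cluster 6 differed, with Sesn2 at 17.9 CPM in KO and 18.3 CPM in WT (-0.03) and Mthfd2 at 26.8 CPM in KO and 24.5 CPM in WT (0.13). Its Nupr1 was the highest of the class, at 1409 CPM in KO and 838 CPM in WT (0.75).

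Nupr1 was above 0 in all 6 fibroblast clusters, from 0.75 to 1.30, and Slc38a2 below 0 in all 6, from -0.96 in cluster 5 to -0.41 in cluster 25. Chka was below 0 in all 6 as well, from -1.91 in cluster 25, on 18 KO and 54 WT UMIs, to -0.57 in cluster 4. Ddit4 had no common direction, at -0.49 in cluster 1, 0.29 in cluster 3 and 0.02 in cluster 4. Differences between clusters were not tested.

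**Figure D3:**
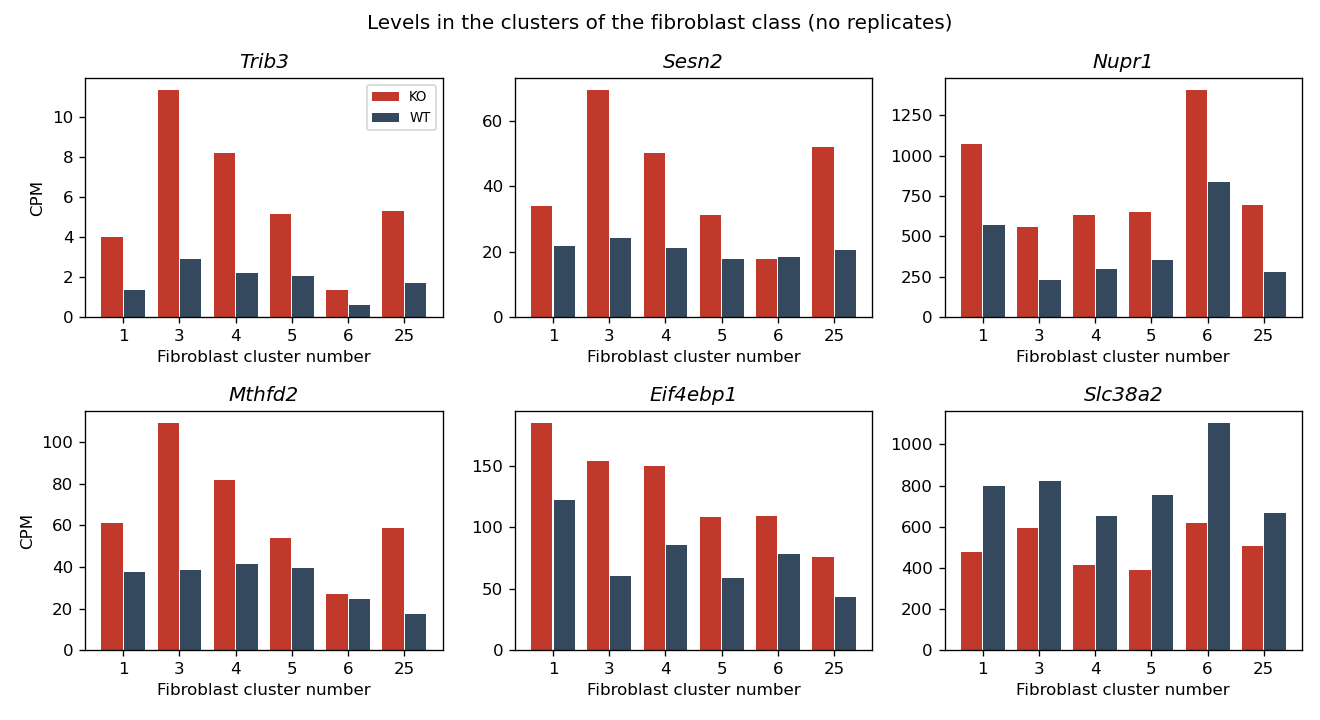
CPM of 6 of the genes in the 6 clusters of the fibroblast class (cluster number on the x axis), KO left of WT, bars from 0, no replicates. Sesn2 stands at 69.6 CPM in KO and 24.4 CPM in WT in cluster 3, while its bars in cluster 6 are level; Slc38a2 is lower in KO in all 6 clusters.

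The genes outside the set were grouped into 15 lists of the same and neighbouring pathways. Their counts stand beside shares over all genes tested of 1.85% called higher and 2.72% lower in fibroblasts, 6.77% and 7.4% in luminal progenitors, 2.56% and 3.59% in basal cells, and 1.57% and 6.15% in hormone-sensing luminal cells. ISR transcription factors and effectors had 1 of 10 called higher and none lower in fibroblasts, with a median ratio of 0.18 beside -0.06 over all genes. That gene was Chac1, a glutathione-degrading enzyme and ATF4 target, at 8.13 CPM in KO and 0.949 CPM in WT (2.23), from 316 and 40 UMIs. In luminal progenitors 2 of 10 were higher, Chac1 at 23.7 CPM in KO and 15.4 CPM in WT (0.59) and the AP-1 family repressor Jdp2 at 45.3 CPM in KO and 21.8 CPM in WT (1.02). Basal cells had 1 of 9 higher, Jdp2 (0.64), and hormone-sensing luminal cells 1 of 10 lower, Ndrg1 (-0.63). Jdp2 was above 0 in all 10 cell groups and called in 7. Atf3, a stress-induced transcription factor named after its values were seen, was also above 0 in all 10 and called in 4 (0.06 in T cells to 1.15 in pericytes or smooth muscle cells).

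Genes of serine, glycine and one-carbon metabolism had 2 of 11 called higher in fibroblasts, Psph at 43.0 CPM in KO and 20.1 CPM in WT (1.06) and Phgdh at 28.8 CPM in KO and 18.0 CPM in WT (0.65), both enzymes of serine synthesis. In luminal progenitors 3 of 10 were higher, Psph (0.86), Phgdh (0.65) and Psat1 (0.64). Basal cells and hormone-sensing luminal cells had 1 each, the thymidylate synthase gene Tyms (0.64 and 0.65). None of this list was called lower in the main classes.

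Asparagine, proline and cysteine synthesis had 1 of 10 higher in fibroblasts, the asparagine synthetase gene Asns at 33.2 CPM in KO and 19.1 CPM in WT (0.77). Luminal progenitors had 2 of 7 higher, Asns (0.69) and the proline pathway gene Aldh18a1 (0.68), and the other main classes had none either way. Among 18 other amino acid transporters, 1 was higher in fibroblasts, the cystine importer gene Slc7a11 at 41.2 CPM in KO and 18.6 CPM in WT (1.11). Luminal progenitors had 3 higher and 2 lower of 16, with Slc7a11 at 0.96 and the glycine transporter gene Slc6a9 at 1.46 on 28 KO and 4 WT UMIs. Basal cells had 2 of 18 lower and hormone-sensing luminal cells 1 of 17 lower; the leucine transporter gene Slc7a5 was among both, at -0.65 and -0.86. The median ran from -0.24 in basal cells to 0.12 in luminal progenitors.

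The 20 cytosolic aminoacyl-tRNA synthetase genes had 1 called in the 4 classes, Yars in luminal progenitors (0.73), with medians of 0.09 in fibroblasts and -0.13 in hormone-sensing luminal cells. Of the 15 genes of the eIF2 kinases, eIF2 subunits and phosphatase, 13 were below 0 in fibroblasts (10 with TMM scaling) and none was called. Basal cells had 2 of this list lower, luminal progenitors 2 higher and 1 lower, and hormone-sensing luminal cells 1 lower. The eIF2 subunit gene Eif2s2 was lower in luminal progenitors at 509 CPM in KO and 881 CPM in WT (-0.79), in hormone-sensing luminal cells (-0.96) and in basal cells (-0.67); it was below 0 in all 10 groups and called in 6. ER chaperones and unfolded protein response genes were below 0 in 13 of 15 in fibroblasts (11 with TMM scaling), with a median of -0.25 and 1 called, the ER chaperone gene Hyou1 at 36.8 CPM in KO and 68.9 CPM in WT (-0.89). In luminal progenitors 2 of 15 were called lower, Creld2 (-0.63) and Manf (-0.67). The highest of this list was Herpud1 in fibroblasts (0.50), luminal progenitors (0.31) and hormone-sensing luminal cells (0.40), and Sdf2l1 in basal cells (0.30). None of these values reached 1.5-fold.

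Lists related to the mTORC1 inhibitors were also counted. Sestrins, mTORC1 and autophagy genes had 2 of 16 called lower in hormone-sensing luminal cells, Tsc1 (-0.86) and Sqstm1 (-0.75), and none in the other main classes. The highest of this list, none of them called, was Rheb in basal cells (0.50) and fibroblasts (0.43). It was Sesn3 in luminal progenitors (0.49) and Map1lc3b in hormone-sensing luminal cells (0.35). The glucocorticoid-induced list had 1 of 10 lower in fibroblasts, Fkbp5 at 7.13 CPM in KO and 13.4 CPM in WT (-0.82), 1 of 10 lower in hormone-sensing luminal cells and 2 of 9 lower in luminal progenitors; its median in hormone-sensing luminal cells was -0.40, with all 10 below 0 (9 with TMM scaling). Hypoxia-induced genes had 1 higher and 1 lower of 10 in luminal progenitors and none called elsewhere. Choline and phospholipid genes had 1 of 9 higher in luminal progenitors, Pemt, at 25 KO and 7 WT UMIs, and none called elsewhere, with Pcyt1a, whose enzyme acts on phosphocholine next, the lowest in each class (-0.57 to -0.43).

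Of 9 mitochondrial stress genes, 1 was higher in fibroblasts, Fgf21 at 17.5 CPM in KO and 10.9 CPM in WT (0.63), and Gdf15 was lower in hormone-sensing luminal cells (-0.62). The heat shock list had 1 of 8 higher in luminal progenitors, Hspa1a at 75.7 CPM in KO and 20.8 CPM in WT (1.82), and none elsewhere. Immediate early genes, which dissociation can induce, had Nr4a1 lower in basal cells (-1.08) and in hormone-sensing luminal cells (-0.72) and no other call; their summed level was 8275 CPM in KO and 8232 CPM in WT fibroblasts. In luminal progenitors it was 9318 CPM in KO and 7906 CPM in WT, with 9 of 11 genes above 0 and a median ratio of 0.23; its part in the ratios of that class was not tested.

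**Figure D4:**
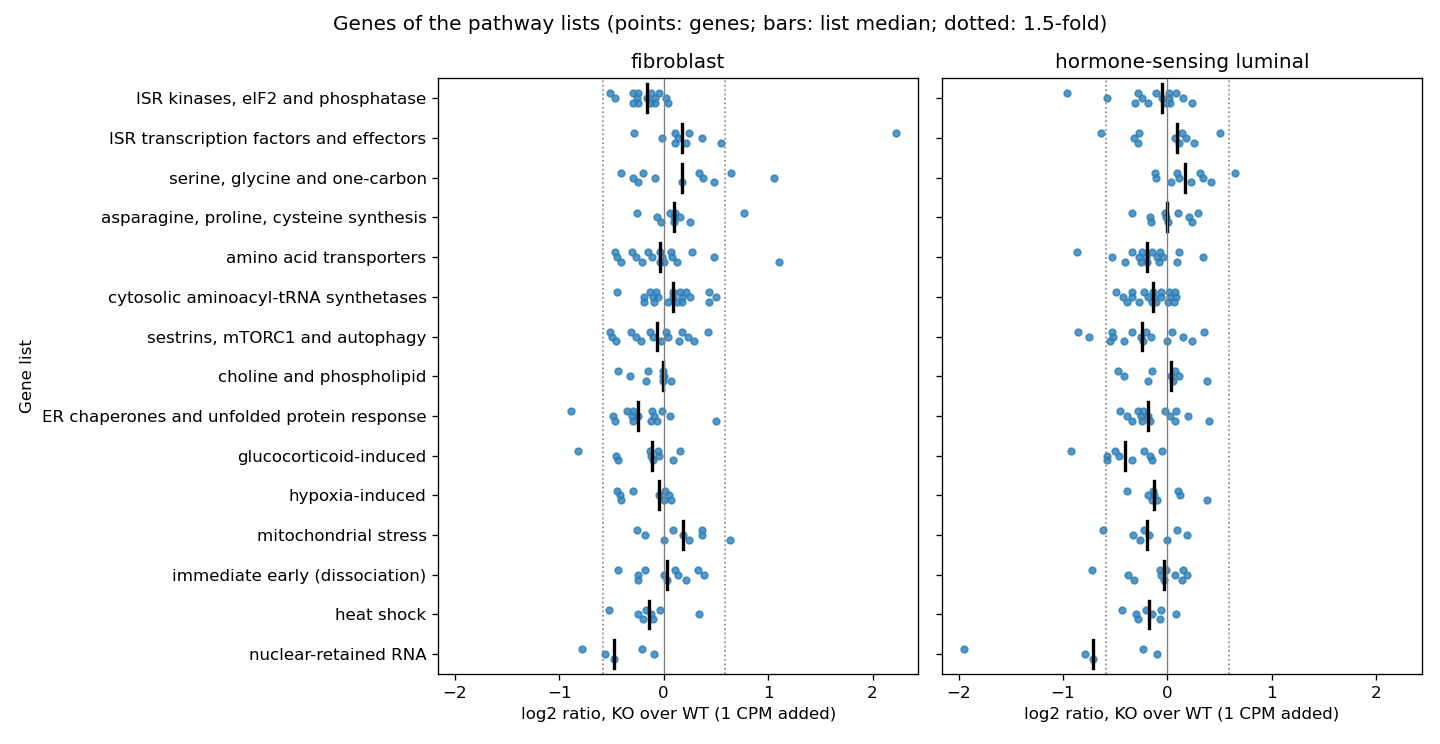
log2 ratio, KO over WT with 1 CPM added, of each gene of the 15 lists (points) in fibroblasts and hormone-sensing luminal cells, with list medians (bars) and 1.5-fold limits (dotted). In fibroblasts Chac1 stands out at 2.23, and the nuclear-retained RNAs have medians of -0.48 in fibroblasts and -0.71 in hormone-sensing luminal cells.

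Other differences between the libraries went along with these. Nuclear-retained RNAs summed to 14056 CPM in KO and 20408 CPM in WT fibroblasts, to 15662 CPM in KO and 24592 CPM in WT basal cells, to 15707 CPM in KO and 23918 CPM in WT luminal progenitors, and to 15529 CPM in KO and 24747 CPM in WT hormone-sensing luminal cells. Of these 5 RNAs, 1 was called lower in fibroblasts, 1 in basal cells, 2 in luminal progenitors and 3 in hormone-sensing luminal cells. Longer transcripts had lower ratios: in fibroblasts with genes split by longest transcript into 3 equal parts, the median was 0.07 for the shortest, -0.08 for the middle and -0.15 for the longest. Slc38a2 (6116 bases) and Chka (4652 bases) have the longest transcripts of the 10 genes. Less the median of their length part, Slc38a2 was -0.52 and Chka -0.56 in fibroblasts, and -1.20 and -1.23 in basal cells. The part of nuclear RNA and transcript length in the results was not tested beyond this. Fibroblast markers in hormone-sensing luminal cells summed to 79.5 CPM in KO and 336 CPM in WT, and basal markers in luminal progenitors to 97.7 CPM in KO and 353 CPM in WT, with none of those markers at 0. The 6 skeletal muscle markers were lower in KO in each main class, summing to 8.52 CPM in KO and 81.4 CPM in WT fibroblasts, 4.95 CPM in KO and 56.8 CPM in WT basal cells, 4.67 CPM in KO and 54.3 CPM in WT luminal progenitors, and 6.56 CPM in KO and 38.6 CPM in WT hormone-sensing luminal cells. In KO 1 of the 6 was at 0 in each epithelial class. The part of these markers in the ratios was not tested.

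Genes whose levels ran most like those of the set over the 10 cell groups were sought in WT, on log2(CPM + 1), for Slc38a2, Nupr1 and Mthfd2. For Slc38a2 they were Ptpn14 (Pearson r 0.95 in WT and 0.81 in KO), Tshz2 (0.94 in WT and 0.87 in KO) and Slc39a10 (0.94 in WT and 0.81 in KO). For Nupr1 they were Manba (0.96 in WT and 0.90 in KO), Esr1 (0.92 in WT and 0.88 in KO) and Sqor (0.92 in WT and 0.85 in KO), of which Esr1 was itself a marker used to name the hormone-sensing class. For Mthfd2 they were Arl5a (0.91 in WT and 0.84 in KO), Rnf115 (0.88 in WT and 0.77 in KO) and Mob1a (0.87 in WT and 0.83 in KO). The cell groups of a library share depth and preparation, and with 10 points these are descriptions. Among the genes of the set, Atf4 and Sesn2 ran most alike (0.79 in KO and 0.79 in WT), whereas Slc38a2 and Atf4 gave 0.68 in KO and 0.42 in WT.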

How the data were processed

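Single-cell 3′ libraries of 1 Gpm6a knockout and 1 wild-type sample were examined. The authors deposited whole-number UMI counts per gene and barcode; the submitters' processing notes list mm10, Cell Ranger 5.0.1 and Seurat 3.2.0. Barcodes passed with 500 or more genes, 1000 or more UMIs and no more than 10% mitochondrial UMIs, doublets called by Scrublet in scanpy 1.11.5 were removed, and both libraries were clustered together (2000 variable genes, 30 components, Leiden resolution 1). Clusters were named from marker lists when they led the next type by a mean log2 fold of 1, a limit set after the clusters were seen. UMIs were summed per class and library; CPM intervals are exact Poisson and shares exact binomial, at 95%, for counting error only. edgeR 4.0.16 supplied TMM factors alone, and no count test was run with 1 sample per genotype. Before use, the ratio and the call were tested on counts simulated from the basal class, and the thinning on a small made-up matrix. The other steps were not tested in this way. Besides the 10 genes, each list's highest and lowest gene per main class with at least 50 UMIs were to be named. Not all of these list genes are named in the text. The 3 genes most like Slc38a2, Nupr1 and Mthfd2 were also to be named. Other genes in the text are those called, named after their values were seen. The 10 genes and all lists were chosen with earlier results of these data known. Of 32285 gene IDs, 99.8% were found in GENCODE M21. A pseudocount of 1 CPM understates ratios of low genes.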

Additional observations from a re-analysis of the deposited data

Results flagged for a closer look

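Among the 10 genes, 2 had counting intervals wholly above 0 in some cell groups and wholly below 0 in others, so the libraries differed in opposite directions; the differences between groups were not tested, with 1 library per genotype. The log2 ratio of Atf4, KO over WT, was 0.17 in fibroblasts and -0.29 in T cells, a gap of 0.46. The ratio of Ddit3 was 0.89 in pericytes or smooth muscle cells and -0.38 in hormone-sensing luminal cells, a gap of 1.27. Atf4 was at 148 CPM in KO and 181 CPM in WT T cells. With TMM scaling the T cell ratio of Atf4 was -0.09 (-0.26 to 0.09), no longer wholly below 0. Atf4 stayed wholly below 0 in luminal progenitors (-0.19, -0.29 to -0.09) and in hormone-sensing luminal cells (-0.14, -0.20 to -0.07). It stayed wholly above 0 in fibroblasts (0.26, 0.24 to 0.29). The ratio of Ddit3 in hormone-sensing luminal cells was -0.30 (-0.60 to -0.06) with this scaling. Ddit3 rested on 152 KO and 279 WT UMIs in pericytes or smooth muscle cells and on 201 KO and 251 WT UMIs in hormone-sensing luminal cells.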

How the results depend on the processing

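No paired analysis was possible because each genotype had 1 library. Of 17 alternatives, 2 were chosen after seeing the data (a lead of 0.5 to name a cluster, and ratios less the median of genes of like transcript length). No called value in the 4 main classes changed sign. Single ratios of the other 6 groups were followed under TMM scaling alone, where no called value changed sign. The number of genes called higher in basal cells was 1, in place of 2 (Eif4ebp1 lost its call), with at most 5% mitochondrial UMIs, with called doublets kept, with cells classed one by one, with length centring and with cells thinned to 2000 UMIs. In luminal progenitors it was 2, in place of 4, with a lead of 0.5, with cells classed one by one and after thinning; in hormone-sensing luminal cells it was 1, in place of 0, after thinning. The number called lower in fibroblasts was 1, in place of 2, with TMM scaling and 0 with length centring. Nupr1 in basal cells ran from 0.67 with all deposited barcodes to 1.89 with each library clustered alone, Trib3 in fibroblasts from 0.75 with 5 CPM added to 1.74 with 0.1 CPM added, and the mean of Ddit4 over cell groups was -0.22 after thinning, in place of -0.49. TMM scaling moved the ratios of a group up by about the same amount, and by less for low levels because 1 CPM was added. The shift was at most 0.20 in T cells, 0.16 in dendritic cells and 0.13 in B cells, and up to 0.09 in the 4 main classes. This scaling turned the mean of Atf4 over cell groups to 0.02, in place of -0.07. Slc38a2 and Chka in basal and hormone-sensing luminal cells kept their direction and stayed past 1.5-fold in all 16 alternatives that gave a ratio, as did Slc38a2 in luminal progenitors; in fibroblasts Slc38a2 stayed past it in 14 and Chka in 15 of 16, and Chka in luminal progenitors in 13 of 16. Depth limits Trib3 in B cells and in pericytes or smooth muscle cells, with under 20 UMIs.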

Other observations

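Outside the named classes, a cluster with markers of both luminal types (453 KO and 342 WT cells, median 31366 and 32116.5 UMIs) had Slc38a2 at 273 CPM in KO and 521 CPM in WT, Ddit4 at 29.0 CPM in KO and 63.3 CPM in WT, Nupr1 at 665 CPM in KO and 547 CPM in WT and Mthfd2 at 35.3 CPM in KO and 21.3 CPM in WT. An unnamed cluster of dividing cells (109 KO and 114 WT cells) had Chka at 51.0 CPM in KO and 103 CPM in WT, Nupr1 at 311 CPM in KO and 151 CPM in WT and Trib3 at 23.2 CPM in KO and 13.7 CPM in WT. A cluster led by Rxfp2, Rspo3 and Myoc held 659 WT cells and 14 KO cells; its WT cells had Slc38a2 at 764 CPM, Atf4 at 429 CPM, Nupr1 at 227 CPM and Ddit4 at 6.43 CPM. A cluster led by Cst6 held 298 WT cells and no KO cell, with Slc38a2 at 1024 CPM, Atf4 at 343 CPM and Nupr1 at 54.4 CPM. Among named classes too small to be cell groups, Nupr1 was lower in KO natural killer cells (7 KO and 115 WT UMIs, -4.29). It was also lower in KO mast cells (15 KO and 85 WT UMIs, -2.42). Neutrophils went the other way (14 KO and 17 WT UMIs, 0.73), and skeletal muscle cells had under 20 UMIs.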
